A study of Mus musculus with 2 samples.

Results

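Photoreceptor precursors, the postmitotic cells of the embryonic retina that go on to become cones and rods, were picked out of single-cell RNA sequencing of mouse eyecups at E13.5. The rule kept cells with more than 200 and fewer than 6000 detected genes, mitochondrial transcripts at 1 to 20% of UMIs (unique molecular identifiers, each a counted mRNA molecule), hemoglobin transcripts below 20% and the lens crystallins Cryaa and Cryab together below 1%. The members were chosen by their UMIs of a few genes: a kept cell was a member if it held at least 2 Otx2 UMIs, at least 1 Crx UMI, fewer than 2 UMIs of the cycling genes Top2a and Mki67, and fewer than 4 UMIs of the pigment genes Pmel, Dct, Trpm1 and Tyrp1. There were 62 members among 7331 kept cells and 10315 barcodes of the control, and 68 among 10127 kept cells and 12672 barcodes of the double knockout (DKO), 130 of 17458 kept cells in all.

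The control eyecups carried Six3+/-;Six6+/-, with 1 functional copy of each gene, and were not wild type. The DKO eyecups carried Six3F/F;Six6-/-;a-Cre. Six6 was absent from the germline in the DKO, whereas Six3 was removed only where a-Cre, driven by a Pax6 retinal enhancer, was active, which is the peripheral retina, so central DKO cells could retain Six3. Each library came from the eyecups of 1 embryo, lens and blood included. With 1 library per genotype no difference between genotypes could be tested, and the genotype, the embryo and the library cannot be told apart. All intervals below are 95% intervals of counting error only and do not cover the variation between embryos.

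Photoreceptor precursors arise from progenitors that leave the cell cycle, many of them through a neurogenic state marked by the proneural factor Atoh7. Otx2 is the homeodomain factor that starts the photoreceptor programme, and Crx, a related homeodomain factor, acts after it to switch on photoreceptor genes. Prdm1 (also called Blimp1) holds Otx2-expressing cells in the photoreceptor fate and away from the bipolar fate, and Thrb encodes the thyroid hormone receptor of early cones. Cones are born ahead of most rods, so a retina of this age holds mainly young cone precursors, and the visual pigments come on later.

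Otx2 and Crx proteins recognise the sequence TAATCC. Promoters, taken here as the 300 bases from 250 before to 50 after a RefSeq transcript start on GRCm38.p6, were searched for TAATCC and for its reverse complement GGATTA. Of 32851 promoters of all genes, 7.06% held a match. Among the 15 genes that most set the members apart from Atoh7 cells (described below), 11 had a promoter in the table, and 2 of these, Thrb and Ankrd33b, held a match, in 2 of the 18 promoters of these genes (11.1%). The 2 promoters and that of Crx are printed 5′ to 3′ on the strand of the gene, with the matches in capitals, because these are the sequences in which the letters of the motif can be seen at genes that mark the members. The Crx promoter, chr7:15879906-15880205 on the minus strand, held 2 matches. The Thrb promoter, 1 of 2 in the table, lies at chr14:17660710-17661009 on the plus strand, and the Ankrd33b promoter at chr15:31367710-31368009 on the minus strand. Each of these held 1 match. A match is a description of the letters and says nothing of binding.
Crx: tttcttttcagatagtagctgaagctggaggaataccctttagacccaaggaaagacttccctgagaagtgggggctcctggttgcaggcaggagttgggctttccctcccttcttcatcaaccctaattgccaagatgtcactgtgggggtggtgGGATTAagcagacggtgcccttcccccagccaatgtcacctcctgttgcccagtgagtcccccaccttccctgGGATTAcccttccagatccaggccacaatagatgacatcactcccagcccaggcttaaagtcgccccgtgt
Thrb: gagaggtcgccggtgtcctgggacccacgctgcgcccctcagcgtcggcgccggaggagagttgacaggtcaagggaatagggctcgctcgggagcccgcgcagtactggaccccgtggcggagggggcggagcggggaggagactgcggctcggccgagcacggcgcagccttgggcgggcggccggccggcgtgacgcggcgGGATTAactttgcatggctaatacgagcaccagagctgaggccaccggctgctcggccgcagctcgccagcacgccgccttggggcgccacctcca
Ankrd33b: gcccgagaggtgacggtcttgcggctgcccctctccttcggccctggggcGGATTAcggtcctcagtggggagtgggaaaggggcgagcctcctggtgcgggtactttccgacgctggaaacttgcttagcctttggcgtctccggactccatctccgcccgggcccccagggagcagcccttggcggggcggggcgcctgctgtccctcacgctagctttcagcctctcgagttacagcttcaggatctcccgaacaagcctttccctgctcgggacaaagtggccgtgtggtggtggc

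Members made up 0.846% of kept control cells (exact binomial interval 0.649 to 1.08) and 0.671% of kept DKO cells (0.522 to 0.85). The intervals overlapped. The DKO library was shallower, with a median of 6137 UMIs per kept cell against 7923 in the control, and the rule asks for UMIs, so its yield moves with depth. With all kept cells sampled down to 3000 UMIs (535 control and 1016 DKO cells were too shallow and were dropped), the shares were 0.53% (0.371 to 0.733) and 0.362% (0.249 to 0.508). After thinning to 2000 UMIs, a depth chosen after the data were seen, they were 0.288% (0.176 to 0.444) in the control and 0.348% (0.24 to 0.489) in the DKO, so the order of the libraries turned with the depth and no order is read from it.

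The members themselves were shallow cells. Control members held a median of 4992 UMIs (2463 to 13900) and 2291 genes, and DKO members a median of 3431 UMIs (2105 to 15091) and 1825 genes. Summed over members, 344388 UMIs were counted in the control and 306396 in the DKO. Levels are given as CPM, the UMIs of a gene scaled to the UMIs of the pooled members (counts per 1e6). Mitochondrial transcripts took a median of 5.9% of UMIs in control and 4.61% in DKO members. The libraries shared 22 barcodes, none of them a member's. The doublet caller Scrublet marked 1 control member and 0 DKO members.

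Otx2 and Crx were used to choose the cells, so their levels are a description of that choice. Otx2 ranged from 2 to 22 UMIs per control member (median 4.5) and from 2 to 14 per DKO member (median 5), and stood at 990.2 CPM (888 to 1101) and 1191 CPM (1072 to 1320). Crx ranged from 1 to 7 UMIs in the control and from 1 to 5 in the DKO, with a median of 2 in both. At the edge of the rule, 9 control and 8 DKO members held exactly 2 Otx2 UMIs, and 24 and 28 held a single Crx UMI. Just outside lay 7 control and 13 DKO cells with 1 Otx2 UMI beside Crx, and 97 and 101 cells with at least 2 Otx2 UMIs and no Crx UMI. A further 8 control and 4 DKO cells were left out as cycling, and 0 in each library for pigment.

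The other named markers of the cell type were present in nearly every member. Prdm1 was counted in 56 of 62 control members (90.3%) and 58 of 68 DKO members (85.3%), and Thrb in 51 (82.3%) and 58 (85.3%). At least 1 of these 2 genes was seen in all but 1 control and 2 DKO members, and both in 46 and 50. With every member thinned to 2000 UMIs, which left none out, Prdm1 was seen in 67.7% of control and 72.1% of DKO members, and Thrb in 64.5% and 67.6%. In red blood cells, which should lack both, at the same depth, Prdm1 was seen in 0.165% and 0.302% of cells and Thrb in 0.0824% and 0.754%. The median depth of those cells before thinning was 8736 UMIs in the control and 6710 in the DKO. Hemoglobin took a median of 86.1% and 87.1% of their UMIs. Few UMIs were thus left for other genes, so red blood cell values here and below understate the background. By these markers the cells of both libraries matched the label.

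**Figure D1:**
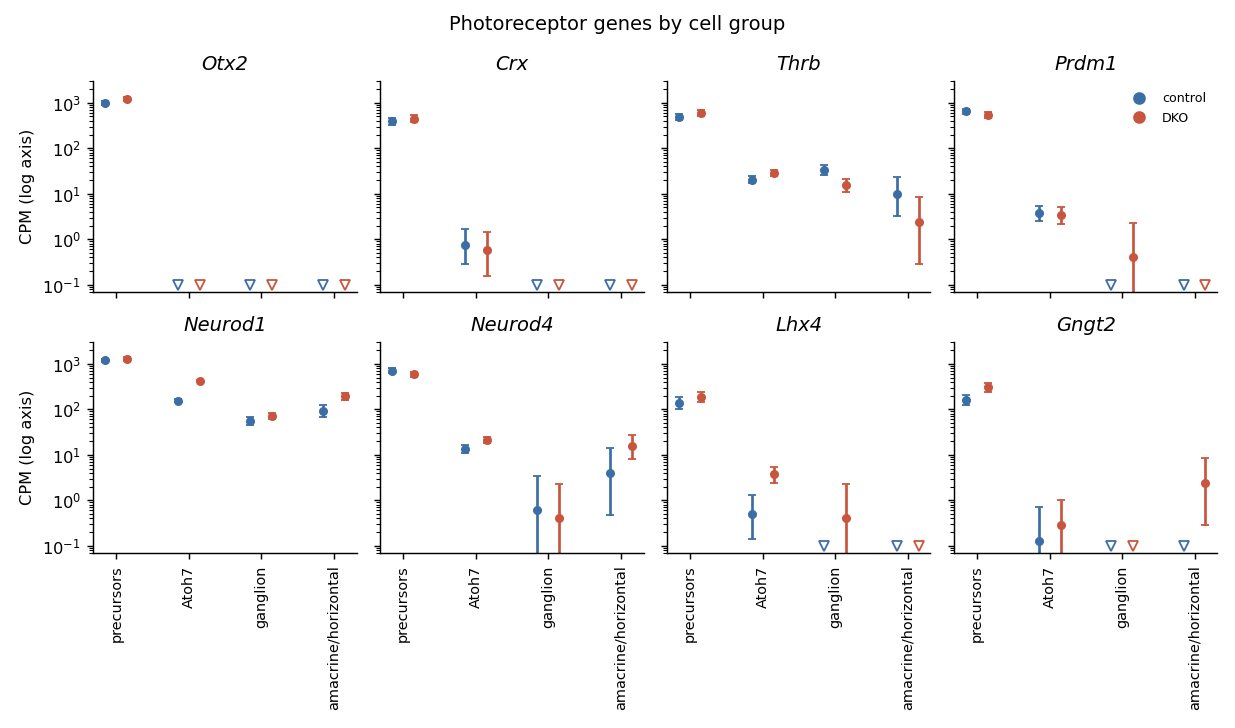
CPM of 8 photoreceptor genes, on a log axis with 95% Poisson intervals, in the members and in Atoh7 cells, ganglion cells and amacrine or horizontal cells of the control (blue) and DKO (red), with open triangles for genes without a UMI. Otx2 and Crx were part of the rule, and cells with Otx2 were left out of the other groups. Prdm1 stood at 645 and 532 CPM in the members and at 3.8 and 3.44 CPM in Atoh7 cells.

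To show what else sets these cells apart, they were compared within each library with noncycling Atoh7 cells that held at least 3 Atoh7 UMIs and no Otx2 UMI (1143 control and 1254 DKO cells), the neurogenic cells nearest to them. Of genes with at least 20 UMIs over both libraries' members, 8.73% stood at least 1 log2 unit higher in control members than in control Atoh7 cells, and 8.44% did so in the DKO. Among the 8 measured photoreceptor factors 7 did so in each library, as did 10 of 11 measured phototransduction and outer segment genes. The cells differ by the rule itself, so these counts describe the members and are not a test.

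The highest ratios that held in both libraries belonged to genes of the photoreceptor cascade. Gngt2, the cone transducin gamma subunit, stood at 163 CPM in control members and 304 CPM in DKO members, against 0.127 and 0.287 CPM in Atoh7 cells. Cdhr1, a cadherin of the outer segment base, stood at 154 and 166 CPM against 0.254 and 0.287. Pdc (phosducin), which binds transducin beta-gamma, had 44 UMIs in control and 45 in DKO members and 0 in the Atoh7 cells of either library. All of these lay far beyond counting error in both libraries.

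Several of the others encode transcription factors. Prdm1 was 7.4 log2 units higher in control members than in control Atoh7 cells and 7.27 in the DKO. Lhx4, a LIM homeodomain factor of young cones, was 8.1 and 5.67 higher. Neurod4, a bHLH factor of early photoreceptors, was 5.73 and 4.77 higher, and Thrb 4.54 and 4.36. Meis2, a TALE homeodomain factor, was 5.21 and 3.73 higher. The 15 also held Lypd1, Platr17, Dlc1, Ankrd33b, Rassf8, Rreb1 and Fabp7, the last a fatty acid binding protein.

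Among the 10 genes lowest in members against Atoh7 cells was Elavl4, an RNA-binding protein of ganglion cells, with a log2 ratio of -2.8 in the control and -1.54 in the DKO. Igfbpl1 gave -3.23 and -2.19, and Mab21l2 -2.92 and -1.43. Sox11, a factor of newborn neurons, gave -1.45 and -1.29. Miat, Cadm1, Mllt11, Nhlh2, Dpysl4 and Rtn1 completed the 10.

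Six6, a homeodomain factor of the eye field at chr12:72939892-72944899 (mm10), was the targeted gene lacking in the germline of the DKO. Its UMIs numbered 88 in control members, in 42 of 62 cells, and 12 in DKO members, in 10 of 68 cells. Its level was 256 CPM (205 to 315) in the control and 39.2 CPM (20.2 to 68.4) in the DKO, a log2 ratio of -2.71 (-3.71 to -1.83). The DKO allele replaces part of the gene, and 3′ counting can still register RNA from what remains. In red blood cells Six6 stood at 36.8 CPM in the control and 8.41 CPM in the DKO. Hemoglobin took most of their UMIs, so these values are not a like measure of the background in members. The lower level in DKO members matched the label of the DKO library, though it was not at 0, and how much of it was background was not tested.

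Six3, the related factor at chr17:85613608-85629302, was higher in DKO members. It had 97 UMIs in control members, in 41 cells, and 147 in DKO members, in 57 cells, or 282 CPM (228 to 344) against 480 CPM (405 to 564), a log2 ratio of 0.77 (0.39 to 1.15). At 2000 UMIs per cell Six3 was seen in 38.7% of control members (26.6 to 51.9) and 63.2% of DKO members (50.7 to 74.6), against 3.71% and 5.88% of red blood cells. In Atoh7 cells the log2 ratio was -0.25 (-0.32 to -0.18), in ganglion cells 0.10 (-0.004 to 0.20), in amacrine or horizontal cells 0.20 (0.0077 to 0.39) and in all other kept cells -0.08 (-0.11 to -0.0546). Control members lay below control Atoh7 cells in Six3 (282 against 536 CPM), whereas DKO members lay near DKO Atoh7 cells (480 against 450 CPM). The floxed Six3 allele loses only part of the gene after Cre. For its clusters of naive progenitors, however, the paper reports a much stronger fall of Six3 mRNA in Cre-positive than in Cre-negative DKO cells. How many DKO members had lost function was not tested, and the feature table used here holds no Cre. The control carried 1 functional Six3 copy, whereas DKO cells untouched by Cre kept both floxed copies. The part of copy number in the ratio was not tested.

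**Figure D2:**
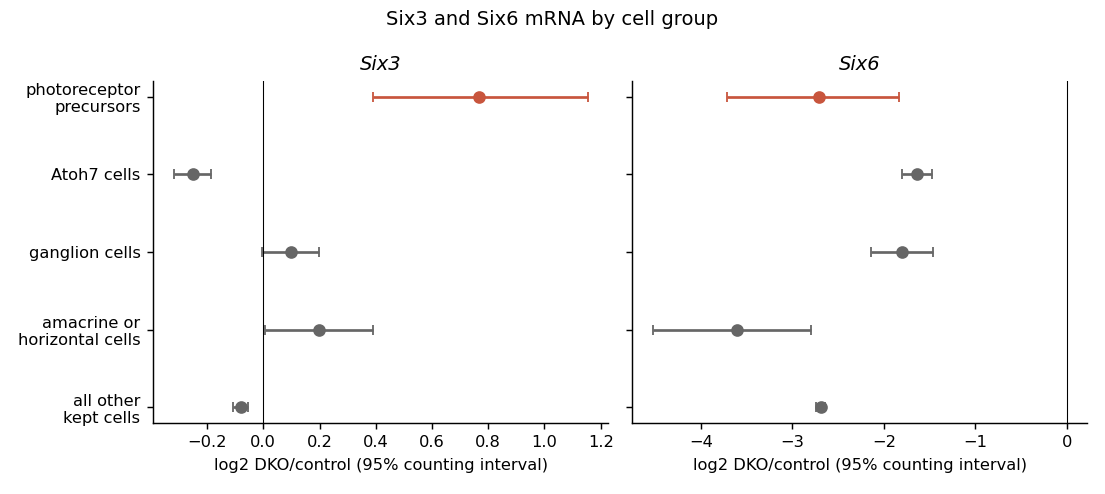
Log2 ratio of DKO to control CPM for Six3 (left) and Six6 (right) in the members (red) and in 4 other groups of cells (grey), with 95% counting intervals. Six3 lies at 0.77 in the members and between -0.25 and 0.20 elsewhere, and Six6 lies below 0 in every group.

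Under the rule used, the photoreceptor factors were close to level between genotypes, but several lay lower in the DKO with at least 2 Crx UMIs. Of 14 genes in that list (Otx2 and Crx are not in it), 8 had at least 20 UMIs over the members, and their median log2 ratio of DKO to control was -0.03, beside 0.01 over all 5306 genes past that minimum. None of the 8 was past 1 log2 unit in either direction, where 3.6% of all genes were higher and 3.41% lower. Neurod1, which promotes photoreceptor fate and survival, stood at 1185 and 1247 CPM (0.07, -0.13 to 0.28). Prdm1 stood at 645 and 532 CPM, a difference within counting error (-0.28, -0.58 to 0.02). Thrb stood at 479 and 584 CPM (0.29, -0.03 to 0.60), Neurod4 at 709 and 584 CPM (-0.28, -0.56 to 0.01), and Rorb, a nuclear receptor of the rod lineage, at 935 and 852 CPM (-0.13, -0.38 to 0.11). With doublets left out, Prdm1 gave -0.30 (-0.60 to -0.0012), Neurod4 -0.30 (-0.59 to -0.019) and Thrb 0.24 (-0.077 to 0.55). Without the 3 DKO members rich in ganglion transcripts, described below, Thrb gave 0.45 (0.13 to 0.76), Prdm1 -0.11 (-0.41 to 0.19) and Neurod4 -0.13 (-0.42 to 0.16). With at least 2 Crx UMIs the list median was -0.36. Prdm1 then gave -0.63 (-1.03 to -0.23), Neurod4 -0.66 (-1.04 to -0.29), Rorb -0.43 (-0.74 to -0.12) and Neurod1 -0.28 (-0.55 to -0.02). Thrb gave -0.07 (-0.47 to 0.33) and Lhx4 0.11 (-0.62 to 0.85).

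Casz1, a zinc finger factor of retinal progenitors and photoreceptors, was under the rule used the 1 of 8 measured factors whose interval lay apart from 0. Of all genes, 4.84% had an interval above 0 and 4.07% one below. It had 135 UMIs in 52 control members and 76 in 42 DKO members, or 392 and 248 CPM (-0.66, -1.09 to -0.24), and gave -0.14 (-0.83 to 0.54) with cells thinned to 3000 UMIs before the rule. Lhx4 stood at 139 and 189 CPM (0.44, -0.14 to 1.02), and Rxrg, a retinoid receptor of cones, at 52.3 and 62 CPM (0.25, -0.76 to 1.26). Nrl, the rod determinant, had 4 UMIs in the control and 6 in the DKO.

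Genes of the phototransduction machinery were counted at low levels, and several had more UMIs in the DKO. Of 35 listed genes 22 had a UMI and 11 reached 20 UMIs, with a median log2 ratio of 0.20. The interval lay above 0 for 3 of the 11 and below 0 for none, beside 4.84% and 4.07% of all genes. Gngt2 had 56 UMIs in 19 control members and 93 in 34 DKO members (0.90, 0.41 to 1.41). Gnb3, the cone transducin beta subunit, had 11 and 27 UMIs (1.46, 0.41 to 2.62), and Rpgrip1, of the connecting cilium, 21 and 37 (0.99, 0.18 to 1.83). With cells thinned to 3000 UMIs before the rule, Gnb3 gave 2.13 (-0.20 to 5.40) and Rpgrip1 0.83 (-0.55 to 2.30), neither apart from 0.

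Rbp3, the interphotoreceptor retinoid-binding protein, had 15 and 25 UMIs (0.91, -0.07 to 1.93), and Tulp1 10 and 17 (0.93, -0.28 to 2.22). Pdc stood at 128 and 147 CPM (0.20, -0.43 to 0.83) and Unc119 at 377 and 375 CPM (-0.01, -0.38 to 0.36). Prom1, a disc membrane protein, gave -0.76 (-1.96 to 0.35) from 21 and 11 UMIs. The S opsin gene Opn1sw had 1 UMI in the control and 0 in the DKO. At 2000 UMIs per cell Gngt2 was seen in 21% of control members (11.7 to 33.2) and 36.8% of DKO members (25.4 to 49.3), and Pdc in 16.1% and 33.8%, with Gngt2 in 0.165% and 0.302% of red blood cells and Pdc in 0 of 1214 and 0 of 663. With cells thinned to 3000 UMIs before the rule, which gave other and fewer members, the ratio was 0.23 (-0.57 to 1.02) for Gngt2 and -1.87 (-3.46 to -0.55) for Pdc, so the direction for Pdc turned with the way depth was matched and Gngt2 was no longer apart from 0.

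The neurogenic genes leaned the other way in part. Atoh7, which had 477 UMIs in control and 342 in DKO members, stood at 1385 and 1116 CPM (-0.31, -0.52 to -0.11). Gadd45a, a growth arrest gene of neurogenic cells, stood at 325 and 222 CPM (-0.55, -1.01 to -0.10). With cells thinned to 3000 UMIs before the rule, Atoh7 gave -0.03 (-0.41 to 0.35) and Gadd45a -0.36 (-1.26 to 0.52), neither apart from 0. Over the 11 measured genes of the list the median was 0.03, with Btg2 at 0.06, Hes6 at 0.03 and Insm1 at 0.42 (-0.13 to 0.98). Gm14226 had 51 UMIs in 22 control members and 0 in the DKO. It was also at 0 in DKO Atoh7 cells, against 1094 UMIs in control Atoh7 cells, so its lack in the DKO was not particular to the members.

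The members were next divided by Atoh7, from cells still rich in it to cells without it. At least 2 Atoh7 UMIs were held by 47 of 62 control members (75.8%, 63.3 to 85.8) and 37 of 68 DKO members (54.4%, 41.9 to 66.5). No Atoh7 UMI was held by 6 control members (9.68%, 3.63 to 19.9) and 20 DKO members (29.4%, 19 to 41.7). Because DKO members were shallower, the shares were also taken at 2000 UMIs per cell. Cells without Atoh7 then made up 25.8% of control (15.5 to 38.5) and 39.7% of DKO members (28 to 52.3), and cells with at least 2 UMIs 54.8% (41.7 to 67.5) and 44.1% (32.1 to 56.7), so at equal depth both pairs of intervals overlapped. Atoh7 was seen in 4.2% and 6.18% of red blood cells at that depth.

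Some photoreceptor genes differed between these cells, and for others the intervals overlapped. Atoh7-rich members had a median of 5328 UMIs in the control and 4101 in the DKO, and members without Atoh7 3391.5 and 2893.5, and the part of depth in the division was not tested. Among members with at least 2 Atoh7 UMIs, Gngt2 stood at 112 CPM (76.1 to 159) in the control and 98.5 CPM (60.2 to 152) in the DKO. Among members without Atoh7 it stood at 342 CPM (164 to 630) in the control, from 10 UMIs in 6 cells, and 802 CPM (604 to 1044) in the DKO, from 55 UMIs in 20 cells. The genotypes lay close together in Atoh7-rich members. In members without Atoh7 the log2 ratio of DKO to control was 1.23 (0.24 to 2.37).

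Pdc and Lypd1 were also higher without Atoh7 in both libraries. Pdc was at 94 and 69 CPM in Atoh7-rich members and at 445 and 364 CPM in those without Atoh7. Lypd1 was at 112 and 49.3 CPM against 514 and 729 CPM. Thrb was at 423 and 453 CPM against 616 and 1020 CPM, with intervals that overlapped in the control (350 to 507 and 365 to 974). Rorb ran the other way, at 1070 and 1133 CPM in Atoh7-rich members and 479 and 306 CPM in those without Atoh7. Gadd45a, at 369 and 291 against 137 and 117 CPM, and Neurod4, at 737 and 606 against 377 and 437 CPM, were also lower without Atoh7. For both Gadd45a and Neurod4 the intervals overlapped in both libraries. Prdm1 was near level, at 654 and 527 against 651 and 641 CPM. Crx, part of the rule, was at 379 and 409 against 514 and 481 CPM, with overlapping intervals. Six3 was at 304 CPM in control and 488 CPM in DKO Atoh7-rich members, and at 137 CPM (37.3 to 351) and 423 CPM (283 to 607) in those without Atoh7. The intervals did not overlap among Atoh7-rich members (242 to 376 and 396 to 594), and the log2 ratio in members without Atoh7 was 1.63 (0.12 to 3.60).

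Genes of ganglion cells, the first-born retinal neurons that send axons to the brain, had the highest median ratio of the lists that could be measured, and it rested on 3 cells. Over 14 measured ganglion genes the pooled median log2 ratio was 1.60, with 9 genes at least 1 log2 unit higher in the DKO and 1 lower. Of all genes past the same minimum, 3.6% were that much higher and 3.41% lower. Nefl, a neurofilament, had 6 UMIs in control and 83 in DKO members (3.96, 2.78 to 5.45). Nefm, another neurofilament, had 19 and 127 (2.91, 2.21 to 3.69). Sncg, gamma-synuclein, had 0 and 64, at least 4.58 log2 units higher against a floor of 3 counts, and Gap43, a growth cone protein, 62 and 209 (1.92, 1.51 to 2.35).

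Those UMIs lay in few members. The 3 DKO members with the most ganglion-list UMIs held 318, 249 and 236 of them, the next held 87, and the highest control member held 71. They were among the deepest cells, with 15091, 13925 and 9302 UMIs, and none was called a doublet (scores of 0.157, 0.066 and 0.122 against a threshold of 0.21). They held 5, 8 and 6 Otx2 UMIs and 2, 4 and 2 Crx UMIs. The top 3 cells for each gene carried 95.3% of the DKO UMIs of Sncg, 92.9% of Nefm, 80.7% of Nefl and 64.6% of Gap43. Per cell the order was the reverse, with a median of 8 ganglion-list UMIs per DKO member and 15.5 per control member.

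Without these 3 members, an exclusion chosen after the data were seen, the ganglion median was 0.21 over the 10 genes still past 20 UMIs, and -0.19 over the 13 of the first 14 that still gave a ratio, so its sign depended on which genes entered. Of the 10 genes 2 were past 1 log2 unit higher and 1 lower, where 2.86% and 3.35% of all genes were. Nefm turned to -0.72, Isl1 from 2.13 to -0.38, and Gap43 went to 0.62 and Nefl to 1.78. The median of pan-neuronal genes went from 0.77 over 12 genes to 0.26 over 11. Whether the 3 were single cells with both programmes or mixed droplets was not tested. Photoreceptor factors moved little, from -0.03 to 0.08, and Gngt2 from 0.90 to 1.05.

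**Figure D3:**
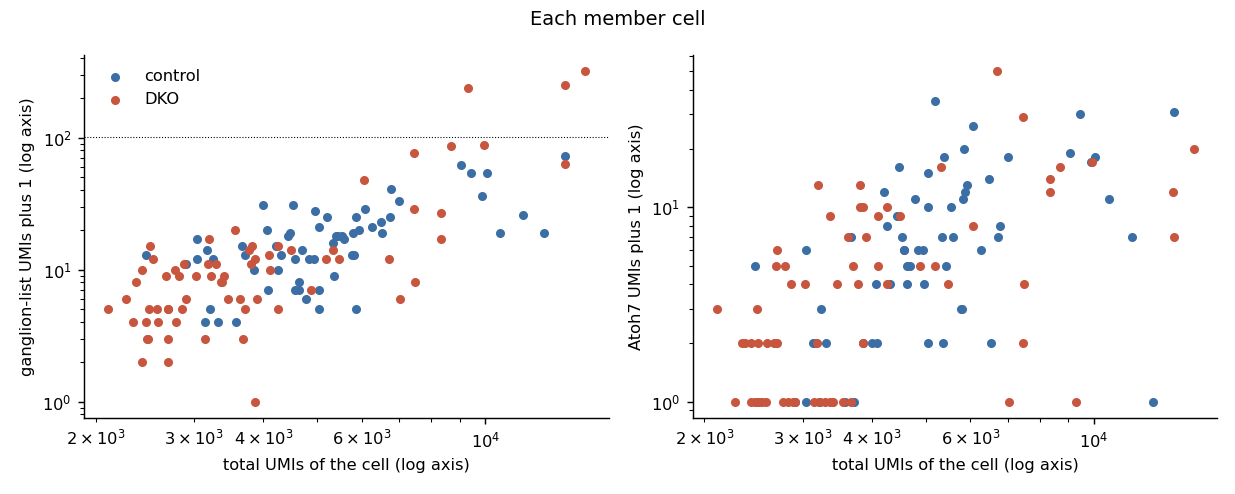
Each member of the control (blue) and DKO (red) by its total UMIs and its UMIs of the 18 ganglion-list genes (left) or of Atoh7 (right), all on log axes with 1 added to the vertical counts. The 3 DKO members above the dotted line at 100 ganglion UMIs held 236 to 318, and the other members at most 87.

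**Figure D4:**
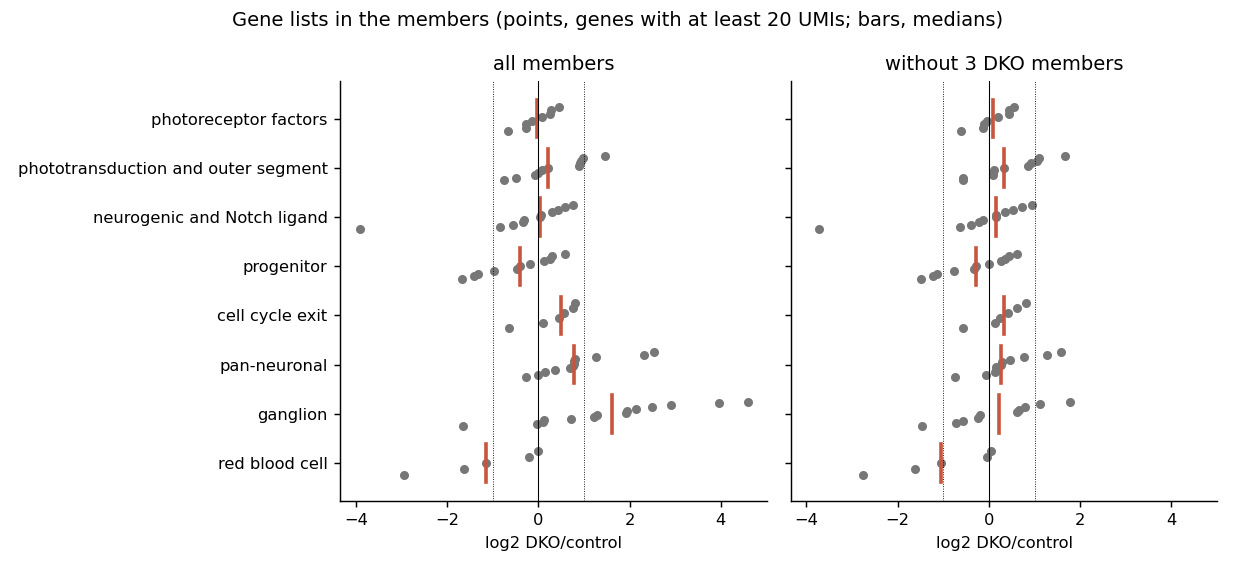
Log2 ratio of DKO to control for each gene with at least 20 UMIs (points) and the median (red bars) of 8 gene lists, over all members (left) and without the 3 DKO members rich in ganglion transcripts (right). The ganglion median moves from 1.60 to 0.21, and the photoreceptor factors stay near 0.

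Of 11 measured progenitor genes 3 had an interval below 0 and none above, beside 4.07% and 4.84% of all genes. Their median was -0.40, but 0.13 with cells thinned to 3000 UMIs before the rule, 0.11 with at least 2 Crx UMIs and -0.053 with members weighted equally, so its sign depended on the setting. Sfrp2, a secreted Wnt antagonist, had 62 UMIs in 15 control members and 22 in 11 DKO members (-1.33, -2.10 to -0.60). The top 3 cells of each library held 69.4% of the control and 63.6% of the DKO UMIs of Sfrp2. Its ratio was -0.95 (-1.75 to -0.18) with doublets left out, and -0.39 (-2.02 to 1.15) with cells thinned to 3000 UMIs before the rule. Fgf15 had 18 and 5 UMIs (-1.68, -3.46 to -0.20), and Id1, an inhibitor of bHLH factors, 55 and 25 (-0.97, -1.71 to -0.26). Both Sfrp2 and Fgf15 were also lower in DKO Atoh7 cells, at -1.96 and -1.15. Rax and Notch1 gave 0.12 (-0.30 to 0.55) and 0.26 (-0.34 to 0.86). Lhx2 had 40 and 53 UMIs (0.57, -0.04 to 1.20).

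The rule left out cycling cells, and few cell cycle genes could be measured. Of 15 genes 3 reached 20 UMIs, with a median of 0.04. Among 6 measured genes of cell cycle exit the median was 0.50, and 1 of the 6, Btg1, had an interval above 0, where 4.84% of all genes did, at 134 and 225 CPM (0.75, 0.19 to 1.32). Cdkn1c, the p57 inhibitor, stood at 331 and 356 CPM (0.10, -0.29 to 0.50).

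Factors of horizontal and amacrine cells were sparse, with 2 of 15 genes measured and a median of -0.07. Onecut2, a factor of horizontal cells and cones, stood at 1533 and 1116 CPM (-0.46, -0.66 to -0.26), whereas in Atoh7 cells it was higher in the DKO, at 0.36. In Atoh7-rich members it was at 1540 and 1069 CPM, so the difference was also present within them. Onecut1 gave 0.31 (-0.65 to 1.29) from 19 and 21 UMIs. Of the 8 bipolar genes only Bhlhe22 was measured, at 0.17 (-0.75 to 1.09), with 22 UMIs in each library.

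Over all 2480 genes with at least 50 UMIs, 24 stood at least 1 log2 unit higher in DKO members (0.968%) and 28 lower (1.13%). The 12 highest ratios with an interval apart from 0 were those of Sncg, Nefl, Nefm, Jun, Mab21l2, Gap43, Rab6b, Elavl2, Dusp8, Igfbpl1, Cdk5r1 and Coa3. Outside the axonal genes, Jun, an AP-1 factor, had 15 UMIs in 12 control members and 64 in 21 DKO members (2.26, 1.43 to 3.18), and stood at 1.91 without the 3 cells but 0.54 (-1.18 to 2.35) with cells thinned to 3000 UMIs before the rule. Elavl2 gave 1.73 (0.98 to 2.54), 1.71 without the 3 cells and 0.76 (-0.55 to 2.15) after that thinning, and Coa3, a mitochondrial assembly factor, 1.31 (0.51 to 2.15), 1.29 and 0.64 (-0.90 to 2.27). Of the 6 measured stress and immediate early genes (median 0.38), Ier2 also lay above 0 (0.73, 0.11 to 1.36), whereas Fos (0.32, -0.67 to 1.32) and Egr1 (-0.17, -1.25 to 0.88) did not.

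The 12 lowest were Gm14226, Six6, Reln, Slc7a1, Igfbp5, Hbb-y, Eif4ebp1, Gtf2ird1, Klf4, Plcg1, Sfrp2 and Lypla1. Reln, which encodes the secreted protein reelin, had 51 UMIs in 29 control members and 14 in 12 DKO members (-1.70, -2.66 to -0.82), while in Atoh7 cells it was higher in the DKO (0.48). Slc7a1, an amino acid transporter, gave -1.67 (-2.49 to -0.92), and -1.16 in Atoh7 cells. Igfbp5 gave -1.65 (-2.25 to -1.09) and -1.83 in Atoh7 cells. Klf4, a zinc finger factor, had 65 UMIs in 34 control members and 21 in 16 DKO members (-1.46, -2.25 to -0.73), and -0.56 in Atoh7 cells. Gtf2ird1, a factor that acts in photoreceptors, gave -1.51 (-2.34 to -0.75) in members and -0.02 in Atoh7 cells. With cells thinned to 3000 UMIs before the rule, Slc7a1 gave -1.20 (-2.85 to 0.25) and Klf4 -0.87 (-2.01 to 0.18), no longer apart from 0. Reln, Igfbp5 and Gtf2ird1 stayed below 0 there, with intervals of -6.27 to -1.07, -2.08 to -0.19 and -3.88 to -0.72.

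**Figure D5:**
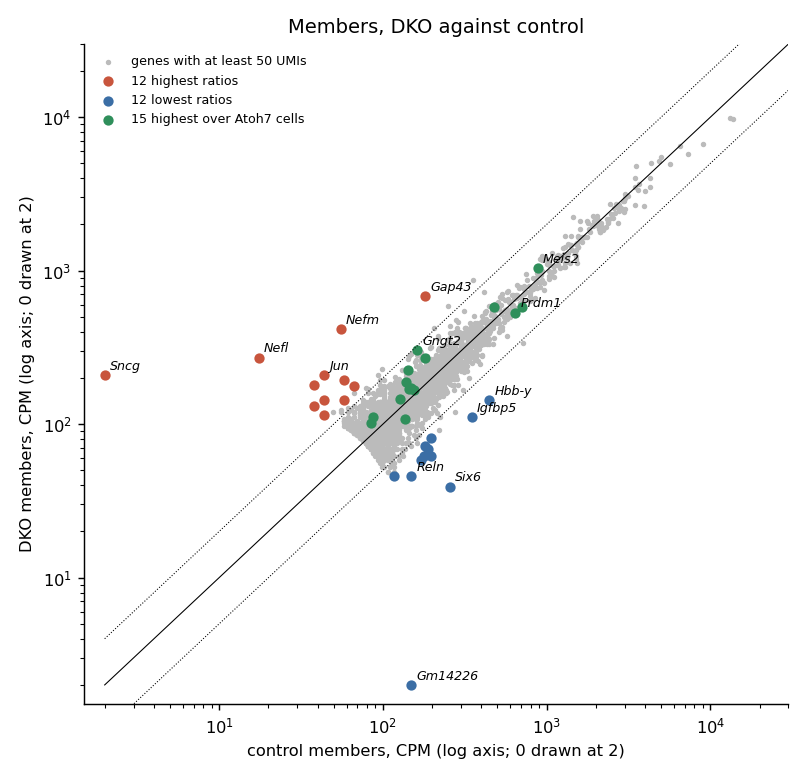
CPM of each gene with at least 50 UMIs in DKO members (vertical) against control members (horizontal), both on log axes, with 0 drawn at 2 and dotted lines at 2-fold. The genes that set the members apart from Atoh7 cells (green) lie between the dotted lines. Among them the log2 interval lay above 0 for Gngt2 (0.90, 0.41 to 1.41), Lypd1 (0.66, 0.11 to 1.22), Fabp7 (0.59, 0.097 to 1.09) and Meis2 (0.24, 0.0069 to 0.47). The intervals of the other green genes included 0. Six6 and Gm14226 lie below the diagonal, and Sncg, Nefl and Nefm lie above it.

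Transcripts of other cells were few in the members. Of 10 pigment epithelium genes 1 was measured (Slc24a5, -0.22, -1.26 to 0.78), with 9 at 0 UMIs in control and 8 in DKO members. None of the ciliary margin, macrophage or vessel and mesenchyme genes reached 20 UMIs. Hemoglobin transcripts were counted in every control member and in 59 of 68 DKO members, with a median of 5 and 2 UMIs of the red blood cell list, whose 5 measured genes had a median ratio of -1.15. Hbb-y stood at 447 and 144 CPM (-1.64, -2.16 to -1.15) and lay at -1.25 in all other kept cells. Lens genes had 57 UMIs in control and 12 in DKO members, and the 2 measured ones a median of -1.74. They were seen in 18 of 62 control and 11 of 68 DKO members, and 1 control member held 27 of the 57. Of the genes listed for ectopic neurons 2 of 10 were measured (median 0.68), among them Uncx, at 81.3 and 170 CPM (1.06, 0.37 to 1.78) in members. The log2 ratio of DKO to control for Uncx in Atoh7 cells was 2.92. The part of RNA from other cells in these values was not tested.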

How the data were processed

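Eyecups of 1 control and 1 DKO embryo at E13.5 were dissociated with papain and captured with the 10x Genomics 3′ kit, and the submitters' processing notes name Cell Ranger 3.1.0 and mm10. The deposited values are whole-number counts of UMIs per gene and barcode, which the authors did not normalize, with 31053 genes in the table. The libraries held 85589515 (control) and 85173276 (DKO) UMIs. The filter the study states for genes and mitochondrial share left 9822 and 12146 barcodes, and the rule used here, which also limits hemoglobin, lens and low mitochondrial cells, left 7331 and 10127.

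UMIs were summed over members and divided by their total. CPM carry exact Poisson intervals, log2 ratios the exact binomial interval of the split of UMIs between libraries, and shares exact Clopper-Pearson intervals, all at 95%. They cover counting error only. A gene at 0 was given a floor of 3 counts over the pooled members. No p-value was computed. Genes needed 20 UMIs over both libraries in list medians and 50 in counts past 2-fold. Named genes were the targeted genes, the markers, the genes of 18 lists (224 genes), the 12 highest and 12 lowest ratios with an interval on 1 side of 0, and the 15 highest and 10 lowest against Atoh7 cells, leaving out the genes of the rule and sex-linked transcripts. Comparison cells held no Otx2: Atoh7 cells at least 3 Atoh7 UMIs, ganglion cells at least 2 Pou4f2 UMIs, and amacrine or horizontal cells at least 2 of Tfap2a, Tfap2b and Ptf1a together. The members and the lists were chosen with earlier results of these data known. Doublets were called with Scrublet in scanpy 1.11.5 at a score of 0.21 in both libraries, which marked 3.01% of control and 2.98% of DKO barcodes. The control's own automatic threshold of 0.641 marked none. Called doublets were left out only as an alternative. Gene positions came from GENCODE M21 and promoters from RefSeq. The ratio and its interval were run on simulated independent Poisson counts, the model the interval assumes. That run checks the computation and does not cover UMIs that cluster in a few cells. Sums and intervals were computed in Python 3.11.15 with scipy 1.17.1.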

Additional observations from a re-analysis of the deposited data

Results flagged for a closer look

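In 7 named genes the ratio of DKO to control had its counting interval on opposite sides of 0 in the photoreceptor precursors and in Atoh7 cells. Of these, Sncg, Nefm, Reln, Plcg1 and Lypla1 were among the genes with the highest or lowest ratios in these same precursors. A difference from other cells is thus partly built into the choice of genes. The share of all genes with such opposite intervals is not given, so the count has no background to be set against. Each genotype had 1 library, and the difference between the groups of cells was not tested. Six3 gave 0.77 in the precursors and -0.25 in Atoh7 cells. Onecut2 gave -0.46 and 0.36, Reln -1.70 and 0.48, Plcg1 -1.35 and 0.19, and Lypla1 -1.27 and 0.24. In Atoh7 cells the intervals of Plcg1 (0.0063 to 0.38) and Lypla1 (0.033 to 0.45) came close to 0. Sncg (at least 4.58, and -0.51 in Atoh7 cells) and Nefm (2.91 and -0.20) rested on the 3 DKO cells rich in ganglion transcripts, and Nefm gave -0.72 without them.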

How the results depend on the processing

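No paired analysis was possible because there was 1 library of each genotype. For the shares, Six3, Six6, list medians and counts of genes, 151 of 177 alternatives left a value within its band, or a count within 1.5 times. The band of a share or a gene was its counting interval. For a list median it ran from the median of its genes' lower bounds to the median of their upper bounds. That is not an interval of the median itself, so staying within it is a loose criterion. The cause of the other changes was not tested beyond what each setting does. The share of precursors was 0.518% (control) and 0.395% (DKO) with at least 2 Crx UMIs, 0.53% and 0.362% with cells thinned to 3000 UMIs, and 0.288% and 0.348% at 2000 UMIs, a depth added after seeing the data. The ganglion median of 1.60 was 2.29 with at least 2 Crx UMIs, -0.052 at 3000 UMIs, 0.84 with members weighted equally, 0.71 with a minimum of 1 UMI in each library, and 0.21 without the 3 DKO members rich in ganglion transcripts, an exclusion added after seeing the data. At 3000 UMIs the pan-neuronal median was 0.18. The photoreceptor factor median was 0.25 with a minimum of 1 UMI in each library and -0.36 with at least 2 Crx UMIs. In members without an Atoh7 UMI, Six3 gave 1.63, the neurogenic median 0.84 and the progenitor median -1.36. Genes past 2-fold, 24 higher and 28 lower in the DKO, numbered 7 and 6 at 3000 UMIs, 9 and 3 in members without an Atoh7 UMI, 5 and 6 with a minimum of 100 UMIs, and 191 and 181 with a minimum of 20; those higher numbered 37 with Otx2 at 1 UMI and 14 without the 3 DKO members. Of the named genes past 2-fold, those that changed sign were Igfbpl1 (-0.20 at 3000 UMIs, -0.23 in members without Atoh7), Mab21l2 (-0.42), Dusp8 (-0.72) and Plcg1 (0.77), all in members without Atoh7, and Nefm (-0.72 without the 3 DKO members). Named genes within 2-fold crossed 0 as well, at 3000 UMIs Pdc (0.20 to -1.87), Rorb (-0.13 to 0.55), Neurod4 (-0.28 to 0.26) and Prdm1 (-0.28 to 0.03), with at least 2 Crx UMIs Neurod1 (0.07 to -0.28), Thrb (0.29 to -0.07) and Pdc (-0.058), and without Atoh7 Rpgrip1 (0.99 to -0.47), Neurod4 (0.22) and Pdc (-0.29). Pdc was also -0.0047 with at least 3 Otx2 UMIs. Six6 stayed below 0 and Six3 above 0 under every alternative run. The depth of the members limits genes below 20 UMIs to wide intervals.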
